A study of Mus musculus with 2 samples.

Results

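Resident macrophages of fat are phagocytes that live along vessels and between adipocytes, and a set of 10 genes that mark them was followed here in cells sorted for PDGFRα. The genes were Mrc1, Cd163, Lyve1, Folr2, F13a1, Pf4, Timd4, Cbr2, Stab1 and Lyz2. They were chosen from earlier results on these same arrays, with their levels and their differences between the groups in view, so every value below describes them and none tests them. All 10 had a value, out of 19938 genes measured by a probe set that names a single gene, and each of the 10 was read by 1 probe set. Cells came from the stromal vascular fraction, the non-adipocyte cells of collagenase-treated inguinal white fat, of female mice aged 6 weeks given doxycycline at postnatal day 1. One group carried floxed Sox9 and the other was Sox9 PreASKO, and doxycycline, sex and age were shared. The labels do not say which promoter drives the deletion. From what is known of the study, Cre is induced by doxycycline in cells that express Pref-1, a preadipocyte protein. Each group was 1 microarray of RNA pooled from 3 mice, so no difference has a replicate, an error or a p-value.

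Macrophages of this kind keep tissue clean. They take up proteins, hyaluronan, haemoglobin complexes and dying cells through scavenger and lectin receptors on their surface. They seed many tissues early in life, renew largely in place, and depend on the growth factor receptor CSF1R and on transcription factors such as PU.1 and MAF. PDGFRα itself is a receptor of fibroblast-like cells and adipocyte precursors and is not a marker of macrophages. Beside the 10 genes, a list of markers of macrophages in general was read in the same arrays. All 20 genes of that list were above background in both arrays, among them the CSF1 receptor gene Csf1r (8.50 in floxed and 8.96 in PreASKO) and the lysosomal glycoprotein gene Cd68 (9.35 and 9.69). All levels are log2 values of the deposited tables, where a step of 1 is a doubling, and all differences are PreASKO minus floxed on that scale. Background was taken as the 95th percentile of 1027 olfactory receptor genes, which lay at 4.64 in the brighter array. For scale, 11800 of all 19938 genes exceeded this level in at least 1 array. The list of general macrophage genes was also chosen with earlier results of these data known. The bulk RNA of a sort cannot tell more macrophages among the sorted cells from more RNA of these genes in each macrophage.

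All 10 resident macrophage genes were well above background in both arrays and all 10 were higher in PreASKO. Their differences ran from 0.22 for Mrc1 to 0.67 for Cbr2, with a median of 0.42, that is from 1.17-fold to 1.60-fold with a median of 1.34-fold. Cbr2 and Folr2 passed 1.5-fold (0.585), the limit that the series itself names, and none was lower. Over all genes 48.2% had a difference above 0, 1.66% were 1.5-fold higher and 1.98% were 1.5-fold lower, and the median difference was 0. Among the 4824 genes whose mean level reached the lowest mean among the 10 (6.68), 55.3% were above 0, 1.16% were 1.5-fold higher and 0.394% were 1.5-fold lower. A difference of at least that of Mrc1, the smallest of the 10, was found in 17.3% of all genes and in 14.2% of these brighter ones. Because the 10 genes were picked with this contrast known, the shares are printed for scale only.

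**Figure D1:**
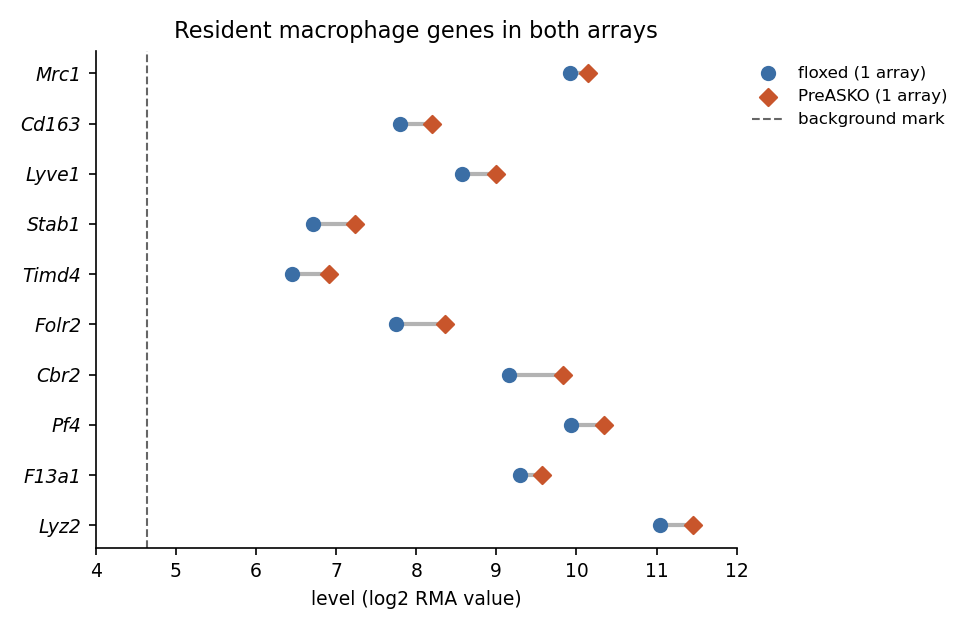
Level of each of the 10 resident macrophage genes (log2 RMA value, horizontal axis) in the floxed array (circles) and the PreASKO array (diamonds), with the background mark of 4.64 as a dashed line. In every gene the diamond lies to the right of the circle, and all 20 points lie right of the mark, while distances between different genes also reflect their probes.

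The promoters of these genes are shown because PU.1 and MAF are the factors best known at macrophage genes. RefSeq windows on GRCm38.p6 were found for 9 of the 10 genes, by symbol, with 11 windows in all, since Folr2 and F13a1 have a pair of starts each. In the 250 bases before each start, both strands were searched for GAGGAA, the core that PU.1 prefers, and for TGCTGA, a half-site of MAF. GAGGAA was in the windows of Mrc1, F13a1, Pf4, Cbr2 and Stab1, that is in 5 of 11, and in 23.3% of all 32851 windows of the table. TGCTGA was in 5 of the 11, those of Folr2 (both starts), Lyz2, Timd4 and Stab1, and in 16.1% of all windows. The bases that end just before the start are printed below for 6 genes, with copies of GAGGAA and TGCTGA, on either strand, in capitals (TTCCTC is GAGGAA on the opposite strand).
Mrc1 (chr2:14229214-14229413, plus strand): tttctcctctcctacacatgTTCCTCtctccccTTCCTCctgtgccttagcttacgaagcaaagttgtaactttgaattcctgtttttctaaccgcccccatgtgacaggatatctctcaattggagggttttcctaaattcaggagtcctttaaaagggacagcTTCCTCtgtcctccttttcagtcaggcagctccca
F13a1 (chr13:37050245-37050344, minus strand): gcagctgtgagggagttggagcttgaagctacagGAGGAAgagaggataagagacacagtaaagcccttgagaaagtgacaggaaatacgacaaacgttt
Pf4 (chr5:90772335-90772434, plus strand): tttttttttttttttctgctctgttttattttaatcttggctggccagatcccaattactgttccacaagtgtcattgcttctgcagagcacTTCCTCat
Cbr2 (chr11:120732022-120732121, minus strand): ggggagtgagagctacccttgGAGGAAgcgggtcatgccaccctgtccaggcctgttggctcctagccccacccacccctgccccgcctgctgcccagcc
Stab1 (chr14:31168642-31168741, minus strand): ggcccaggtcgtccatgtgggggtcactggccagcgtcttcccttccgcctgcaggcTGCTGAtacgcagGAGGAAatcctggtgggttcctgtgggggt
Folr2 (chr7:101845332-101845431, minus strand): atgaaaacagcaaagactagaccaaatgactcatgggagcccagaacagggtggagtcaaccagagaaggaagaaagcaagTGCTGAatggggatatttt
The Mrc1 piece holds 3 copies of GAGGAA, all on the opposite strand, whose first printed bases lie 180, 167 and 35 bases before the start. Stab1 alone holds both motifs, TGCTGA at 43 and GAGGAA at 30 bases before the start, with no overlap. The Folr2 piece is that of the start farther along the gene, with TGCTGA 19 bases before it. TATAAA was in none of the 11 windows, against 12.4% of all, and CACGTG, an E-box, was in none either, against 6.02%. TGACTCA, a site of AP-1, was in 1 window, that of Folr2 at 74 bases, against 4.46% of all. A match of letters is a description of the window and not a bound site, and the genes with a GAGGAA in their window include both the smallest difference (Mrc1) and the greatest (Cbr2).

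Most of the 10 genes encode receptors for uptake. Mrc1, the mannose receptor CD206, takes up glycoproteins with mannose or with sulphated sugars and also collagen fragments. It was at 9.93 in floxed and 10.15 in PreASKO, a difference of 0.22 or 1.17-fold, the smallest of the set. Cd163 encodes the receptor for haemoglobin bound to haptoglobin. Its level was 7.79 in floxed and 8.19 in PreASKO, which is 0.40 or 1.32-fold higher. Stab1 encodes stabilin-1, a scavenger receptor for modified lipoproteins and matrix fragments that is also made by sinusoidal and lymphatic endothelium. It lay at 6.71 and 7.23, a difference of 0.52 or 1.44-fold, the third of the set after Cbr2 and Folr2.

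Lyve1, a hyaluronan receptor named after lymphatic vessels and shared by perivascular macrophages, was at 8.57 in floxed and 8.997 in PreASKO, 0.43 or 1.35-fold higher. Timd4 encodes TIM-4, which binds phosphatidylserine on dying cells and marks long-lived macrophages of embryonic origin in several tissues. It was at 6.45 and 6.91, with a difference of 0.46 or 1.38-fold. Folr2 encodes folate receptor beta, a membrane-anchored folate carrier of macrophages. It was at 7.75 and 8.36, a difference of 0.62 or 1.53-fold, just past the limit. Over the 6 receptor genes the differences ran from 0.22 to 0.62 with a median of 0.45.

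The others are made by macrophages for export or for metabolism. Pf4, platelet factor 4, is a chemokine of platelets that tissue macrophages also transcribe. It was at 9.93 in floxed and 10.35 in PreASKO, 0.42 or 1.34-fold higher. F13a1 encodes the A subunit of coagulation factor XIII, a transglutaminase that cross-links fibrin. It lay at 9.29 and 9.58, a difference of 0.29 or 1.22-fold, the second smallest. Lyz2, the lysozyme of myeloid cells, was at 11.04 and 11.46, 0.42 or 1.34-fold higher, so that Pf4 and Lyz2 differed by nearly the same amount. Cbr2, a carbonyl reductase known from lung and from resident macrophages, was at 9.16 and 9.84. Its difference of 0.67 or 1.60-fold was the greatest of the 10, and 99.1% of all genes had a lower one, against 82.7% for Mrc1.

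**Figure D2:**
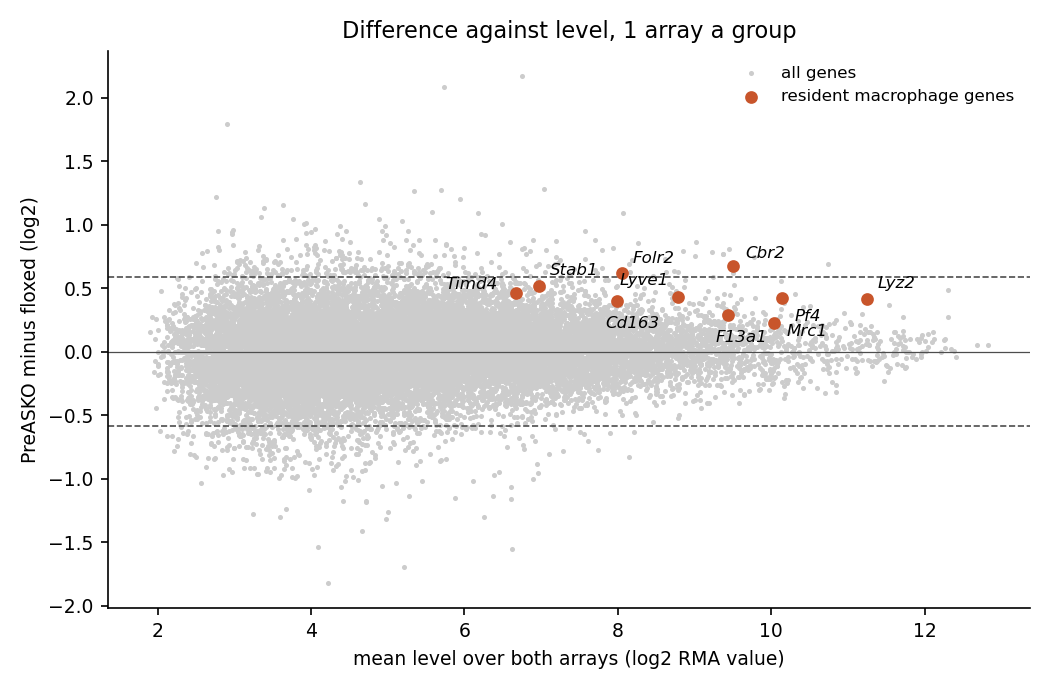
Difference PreASKO minus floxed (log2, vertical axis) against the mean level over both arrays (log2 RMA value) for 19938 genes in grey and the 10 resident macrophage genes in colour, with dashed lines at 1.5-fold in either direction. The 10 genes lie above 0 at mean levels from 6.68 to 11.3, and Folr2 and Cbr2 lie above the upper line.

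The set was thus even in direction but not in size, with 0.45 between its smallest and its greatest difference. Genes of macrophages in general gave a scale for this. The median over that list of 20 genes was 0.46, close to the 0.42 of the resident genes, with 18 genes higher, 5 of them by 1.5-fold, and 2 lower, 1 of them by 1.5-fold. Taken against 0.46, Cbr2 was 0.22 above and Folr2 0.16 above, Stab1 0.06 above and Timd4 level with it (0.0039). Lyve1, Pf4, Lyz2 and Cd163 were below it by small amounts, their offsets running from -0.03 to -0.06. F13a1 lay at -0.17 and Mrc1 at -0.23 from it. With 1 array a group there is no measure of how far such offsets vary between pools of mice. The summed linear signal of the 10 genes was 33.1% greater in PreASKO, and that of the general list 36.9% greater.

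**Figure D3:**
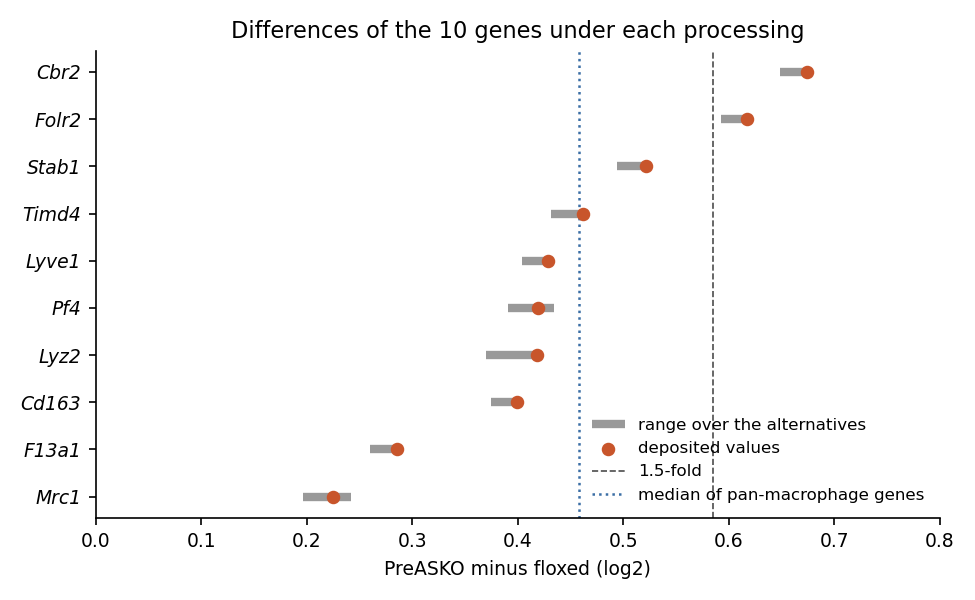
Difference PreASKO minus floxed (log2) of each of the 10 genes with the deposited values (points) and its range over the processings tried (grey bars, which only loess correction and quantile normalization widen), beside the 1.5-fold limit (dashed) and the median of 20 general macrophage genes (0.46, dotted). All bars lie above 0, and those of Cbr2 and Folr2 lie past the limit.

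The general macrophage genes that were 1.5-fold higher were Spi1, which encodes PU.1 (6.35 and 7.16, a difference of 0.81), the membrane protein gene Ms4a7 (0.80), Tyrobp (0.77), the complement gene C1qa (0.75) and the Fc receptor subunit gene Fcer1g (0.59). Cx3cr1, the fractalkine receptor of monocytes and of some tissue macrophages, was 1.5-fold lower, at 6.40 and 5.80 (-0.60). Lgmn, a lysosomal protease gene, differed by -0.08. A further list held 22 genes described in resident or perivascular macrophages, of which 19 were measured. Of these 16 were higher and 3 lower, 3 were 1.5-fold higher and none 1.5-fold lower, with a median of 0.38. Vsig4 and Cd5l of that list were below background in both arrays. Over the 17 above background, 15 were higher and 2 lower, with the same median. The lectin genes Cd209d (7.51 and 8.61, a difference of 1.09), Clec10a (0.66) and Mgl2 (0.63) passed the limit, and as members of gene families with close copies their probes can share signal. Slc40a1, the iron exporter ferroportin, was at 6.11 and 5.77 (-0.34), and the growth factor gene Igf1, which fibroblasts also make, was nearly level (-0.02). Maf, which encodes the factor named above, was at 7.17 and 7.28 (0.11).

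Of 16 further scavenger and endocytic genes, 8 were higher, 7 lower and 1 equal, none passed 1.5-fold in either direction, and the median was 0.03. Over the 12 of these above background, 8 were higher and 3 lower, with a median of 0.07. Msr1, the class A scavenger receptor of macrophages, was at 6.58 and 7.09, a difference of 0.51, and the lipoprotein receptor gene Scarb1 and the fatty acid transporter gene Cd36 differed by 0.42 and 0.38. Colec12, a scavenger collectin, was lower by 0.35 (8.86 and 8.51, a difference of -0.35). Relatives of the 10 genes were looked at where a probe set names them alone. Neither array held Stab2, Cd163l1, Timd2 or Havcr1 above background, and Mrc2, the collagen receptor of fibroblasts, had the same value of 7.69 in both. Such exact ties were found for 758 genes. Folr1, the epithelial folate receptor, was at 4.89 in floxed and below background in PreASKO (4.53). Lyz1, a near copy of Lyz2 that can share its probe signal, was at 6.11 and 6.37, a difference of 0.25. Cd44, a hyaluronan receptor like Lyve1, differed by 0.19 and the reductase gene Dcxr by 0.12.

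Genes of monocytes and inflammatory macrophages had a median of 0.15 over 16 measured genes, against 0.42 for the resident set. Both lists were chosen with earlier results of these data known, so the comparison is not a test. In the monocyte list 11 genes were higher, 4 lower and 1 equal, and 2 were past 1.5-fold. These were Il1b (5.05 and 6.33, a difference of 1.28) and Ccr2, the chemokine receptor of recruited monocytes (4.77 and 5.39, a difference of 0.62). Chil3, Itgax, Nos2 and Treml4 of that list were below background in both arrays. Over the 12 genes above background, 10 were higher and 2 lower, with a median of 0.25. Among 15 factors that feed or attract macrophages the median was 0.09. Csf1 (8.69 and 8.49) and Il34 (6.92 and 6.71), the ligands of the CSF1 receptor, both differed by -0.20. Ccl8, a chemokine that resident macrophages also make, was 1.5-fold higher, at 8.45 and 9.24. Tgfb1 was at 6.37 and 6.82, a difference of 0.46. Il13, which lay closer to background, was at 5.50 and 4.94, a difference of -0.56.

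**Figure D4:**
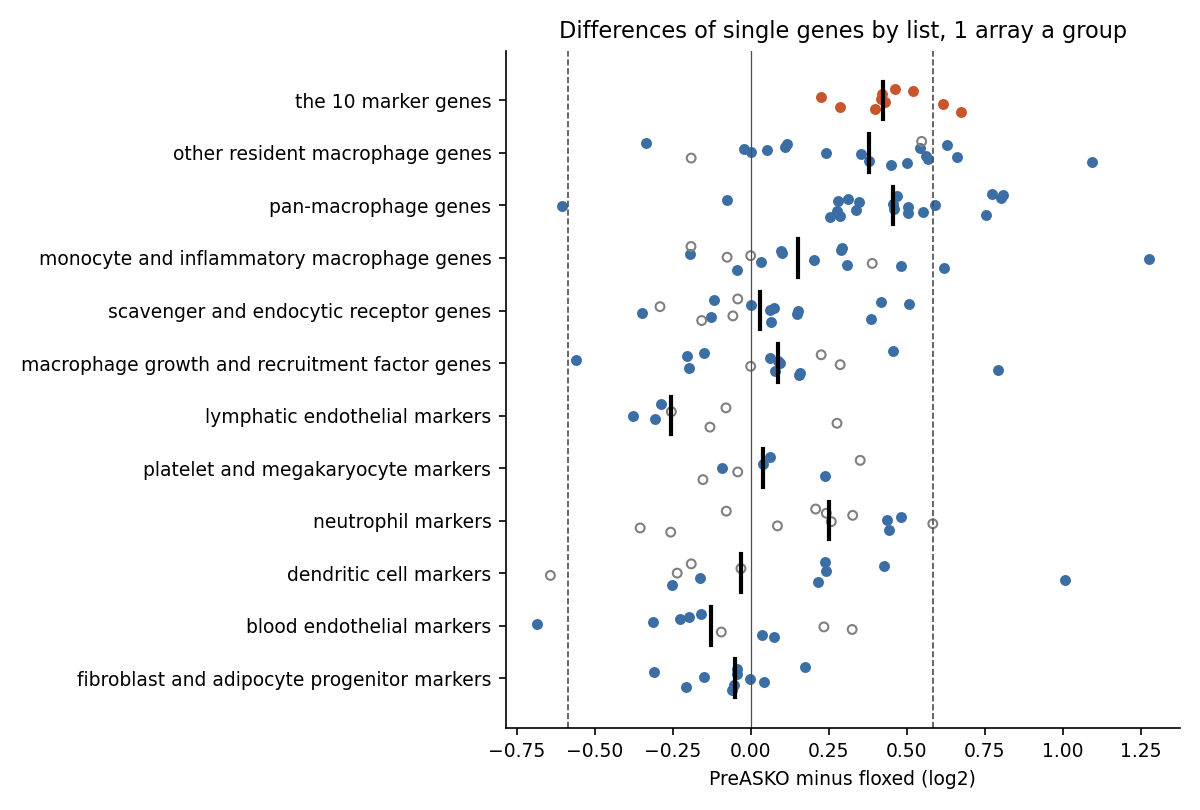
Difference PreASKO minus floxed (log2) of each measured gene of 12 lists, with 1 point a gene, open circles for genes below background in both arrays, black bars for list medians and dashed lines at 1.5-fold. The 10 marker genes (median 0.42) and the general macrophage genes (median 0.46) lie mostly right of 0, and the fibroblast and adipocyte progenitor markers (median -0.05) lie about 0.

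Several of the 10 genes are also made by other cells, so markers of those cells were read in the same arrays. For lymphatic endothelium, which shares Lyve1 and Stab1, the defining genes Prox1, Flt4, Mmrn1 and Reln were below background in both arrays. The 3 markers of that list above background, Pdpn, Nr2f2 and Sema3d, which fibroblasts also express, differed by -0.38, -0.31 and -0.29. Ccl21a of that list was read only by probe sets that name 7 genes, at 6.32 and 6.59, a difference of 0.27. For platelets, which share Pf4 and F13a1, the platelet chemokine gene Ppbp, Gp9 and Clec1b did not exceed background in either array. The summed linear signal of the 7 measured markers was 3.55% greater in PreASKO. Of the others Itgb3 was at 7.37 and 7.40, Treml1 at 5.46 and 5.52, Itga2b at 5.12 and 5.02 and Gp5 at 4.90 and 5.14. For neutrophils, which share Lyz2, 9 of 12 markers (S100a8, S100a9 and Ly6g included) stayed below background in each array. Over all 12 the median was 0.25, with 9 higher and 3 lower, and the summed linear signal was 21.6% greater in PreASKO. The 3 above background in at least 1 array were all higher, with a median of 0.44. Mmp9 and Csf3r, which macrophages can also express, were each higher by 0.44, and Mpo was below background in floxed and barely above it in PreASKO (4.67).

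Dendritic cells share Mrc1 in part, and the markers Flt3, Xcr1, Clec9a and Itgae were below background in both arrays. Of the 7 dendritic markers above background 5 were higher and 2 lower, with a median of 0.24. Cd209a was at 5.99 and 6.998, a difference of 1.01, Siglech differed by 0.43, and Irf8 and Zbtb46 each by 0.24, while Batf3 differed by -0.25. Blood endothelial markers had a median of -0.13 over 10 genes, with Kdr at 5.55 and 4.86 (-0.69). The sorted fibroblasts themselves were near level. Over 10 measured fibroblast and adipocyte progenitor markers, 2 were higher and 8 lower, with a median of -0.05 and a summed linear signal that was lower by a small amount (-1.72%). Pdgfra, which encodes the protein used for the sort, had the lowest difference of these, at 9.86 and 9.55 (-0.31), so that it was lower in the array in which the resident macrophage genes were higher. The part of the sort in these differences was not tested.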

How the data were processed

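Gene expression was measured in 2 groups of 1 microarray each. The deposited values are on a log2 scale and were made by the authors with RMA, which corrects background, makes arrays alike and summarises probes, per the submitters' processing notes. The log base is taken from the values, and versions and filters are not given in the sources used here. Making arrays alike can hide a shift common to most genes, and RMA compresses dim genes. Across 35556 probe sets the arrays had medians of 4.73 and 4.71 and a correlation of 0.982.

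Of the probe sets, 21789 name 1 gene in the platform annotation (which can be old), 1621 several and 12146 none there. The probe set with the highest mean was used per gene. All 10 genes were found by identifier in the RefSeq table of GRCm38.p6. The members and all gene lists were chosen with earlier results of these data known. Beyond the 10 genes, each list names its genes past 1.5-fold and up to 3 per direction with the largest differences above background. Markers below background, relatives of the members and Csf1r, Cd68, Maf, Csf1 and Chil3 were named for their role. A fold against a value below background would be a bound and is given as at least. Steps were tested on simulated data. The number of arrays limits precision. Python 3.11.15, pandas 2.3.3, numpy 2.4.6, statsmodels 0.14.6 and matplotlib 3.10.9 were used.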

Additional observations from a re-analysis of the deposited data

How the results depend on the processing

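Each of the 10 differences was recomputed under 6 alternatives, namely the mean over probe sets, the lowest mean probe set, loess correction (span 0.3), centring on the median difference, quantile normalization, and values raised to the background mark. Only the loess correction and quantile normalization could move these genes, since each has 1 probe set, lies above the mark, and the median difference was already 0. Their 20 values were all above 0 and moved by at most 0.0479 (Lyz2). The number past 1.5-fold stayed at 2. The general macrophage genes that were 1.5-fold higher went from 5 to 4 under loess, and the further resident ones from 3 to 4 under quantile normalization. The medians of the 10 genes, of the further resident genes and of the general macrophage genes moved by less than 0.1. At a 2-fold limit the numbers higher became 0 of the 10, 1 of the further resident genes and 0 of the general ones, which follows from the stricter limit. Raising the background mark to the 99th percentile of olfactory receptor genes moved it to 5.43, and all 10 genes were still above it in both arrays. Keeping only genes above background turned the median of the dendritic cell markers from -0.03 to 0.24, which follows from the genes left out. That of the neutrophil markers went from 0.25 to 0.44 in the same way. Raising values to the mark brought the neutrophil median to 0, and the lymphatic one from -0.25 to 0. With 1 array per group, leaving out a replicate would leave nothing to compare. No paired analysis was possible because the groups hold no pairs of numbered replicates.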

Other observations

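Further gene groups that meet the functions of these 10 genes were listed after the values above had been seen. Haem and iron genes, which concern the cargo of CD163 and iron handling more widely, had a median of 0.17 over 11 measured genes. Of these 9 were higher, 2 lower and none past 1.5-fold. The transferrin gene Trf was at 8.91 and 9.28, the ferritin light chain gene Ftl1 at 11.04 and 11.33 and the biliverdin reductase gene Blvrb at 8.13 and 8.38, while the ferritin heavy chain gene Fth1 was at 11.80 and 11.68. Hmox1, the haem oxygenase of the resident list, was at 10.27 in both. Spic, a transcription factor of iron-recycling macrophages, was below background in floxed (4.22) and at 5.01 in PreASKO, at least 1.29-fold higher.

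A list of 13 genes for receptors of dying cells, their bridging proteins and their signalling had a median of -0.12, with 6 genes below background in both arrays. The 7 above background, which include Axl (9.66 and 9.46) and the integrin gene Itgav (8.58 and 8.50), were all lower, with none past 1.5-fold. Which of the sorted cells made these transcripts cannot be told from bulk RNA. That list leaves out Timd4, the dying-cell receptor gene Mertk and its ligand gene Gas6. These stand in the lists of macrophage genes and were higher by 0.46, 0.31 and 0.24. Hyaluronan genes, which concern the ligand of LYVE1, had a median of -0.08 over 11 genes and of 0.03 over the 8 above background, of which 5 were higher and 3 lower. The synthase gene Has1 was at 8.22 and 8.25 and Has2 at 7.14 and 7.05, and the hyaluronan receptor gene Hmmr, also a gene of dividing cells, was at 4.70 in floxed and below background in PreASKO. Folate genes beside Folr2 had a median of 0.08 over 9 genes, with Mthfd1 at 5.29 and 5.86. The partner subunit gene of F13a1, F13b, and the fibrinogen genes Fga, Fgb and Fgg were below background in both arrays, and fibronectin (Fn1) was at 11.97 and 11.93.

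Of 11 alternative activation genes, Arg1, Pdcd1lg2, Ccl17 and Alox15 were below background in both arrays. The other 7 had a median of 0.16, with 5 higher and 2 lower, and the median over all 11 was -0.07. That list leaves out Mrc1, Clec10a, Mgl2 and Chil3, which were placed in other lists. Retnla, which adipose macrophages and other cells of fat secrete, was at 10.39 and 11.08, a difference of 0.69. Of 15 macrophage transcription factors 11 were higher and 4 lower, with a median of 0.09. No factor of this list above background in both arrays passed 1.5-fold. The list leaves out Spi1 and Maf, which stand in the lists of macrophage genes and were higher by 0.81 and 0.11, Spi1 thus past 1.5-fold. Probe sets that name several genes were left out above, among them those shared by the monocyte genes Ly6c1 and Ly6c2, which differed by 0.13 and 0.06.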
